A study of Mus musculus with 10 samples.

Results

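Alveolar epithelial genes were measured in RNA from sorted mouse lung endothelial cells, as 10 genes of alveolar type I and type II cells: Sftpc, Sftpb, Sftpa1, Sftpd, Lamp3, Slc34a2, Abca3, Ager, Epcam and Cdh1. They were picked by symbol, as a measure of how much epithelial RNA came through the sort, and all 10 were found among the 55385 gene identifiers of the count table. One group, labelled EC-TRAIL KO, had loxP sites in both copies of Tnfsf10, which encodes the death ligand TRAIL, and a single copy of Cdh5.iCreERT2, a Cre recombinase that is expressed from the endothelial Cdh5 promoter and active after tamoxifen (5 libraries). The Control group had the same floxed Tnfsf10 and no Cre (5 libraries). Per the labels, mice were 8 to 14 weeks old and deletion was induced with 1 mg tamoxifen per day for 5 or 10 days; the labels do not say which schedule a given library had. Transgene and deletion go together in this design and cannot be told apart. Whether libraries stand for individual mice is not stated, and the p-values therefore describe scatter among libraries, which may be technical. The series design text names fewer EC-TRAIL KO animals than the 5 libraries, all of which were used. It is not known whether any of them share a mouse. No source used here gives the gate of the sort.

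The alveolus is lined by flat type I cells, across which gas is exchanged, and by cuboidal type II cells, which make and secrete surfactant and can give rise to type I cells. Surfactant is a film of lipid and protein that lowers surface tension; its lipid is packed in lamellar bodies. Both cell types lie directly on the capillary bed, and neither belongs to the endothelial lineage, so their transcripts are used to gauge what else a preparation of lung endothelium holds.

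Library totals ran from 29806083 to 34702571 expected counts in EC-TRAIL KO and from 34435835 to 56897822 in Control. Tnfsf10 averaged 179 ± 89.7 CPM (counts scaled to library size with TMM factors) in EC-TRAIL KO and 334 ± 35.7 CPM in Control (SD, n = 5 each), and its log2 fold change of -0.90 (SE 0.274) did not pass the test over all genes (edgeR adjusted p = 0.405). Replicate 2 of EC-TRAIL KO, at 318 CPM, lay inside the Control range of 298 to 374 CPM. Replicates 1, 3, 4 and 5 of EC-TRAIL KO were at 199, 126, 169 and 81.0 CPM. Why replicate 2 lay above them was not tested. The labels do not say which exons are removed, and in any of these libraries reads from exons that remain would still be counted. All 13 endothelial markers were present in every library, with a summed level of 18635 to 21230.1 CPM in EC-TRAIL KO and 18849 to 22346 CPM in Control. Their presence does not measure the purity of the sort, as no unsorted lung library was analysed here. Replicate 2 of EC-TRAIL KO and replicate 2 of Control stood apart from the others in the alveolar genes, and results that rest on them are given again without them.

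The surfactant genes are under the control of the lung epithelial factor NKX2-1 and of FOXA factors, so the stretch just before the start of transcription is shown for 4 of the 10 genes. RefSeq (GRCm38.p6) gave this stretch for 7 genes, Sftpb, Sftpa1, Lamp3, Slc34a2, Abca3, Ager and Epcam; Sftpc, Sftpd and Cdh1 were not matched. Each sequence runs 250 bases up to the start site. Capitals mark CTCAAG or its reverse complement CTTGAG, a core of NKX2-1 sites, and TGTTTAC or its reverse complement GTAAACA, a core of FOXA sites. Sftpb and Sftpa1 hold the first motif, Lamp3 holds the second, and Ager is shown because its levels followed a different course.
Sftpb, chr6:72304360-72304609, plus strand: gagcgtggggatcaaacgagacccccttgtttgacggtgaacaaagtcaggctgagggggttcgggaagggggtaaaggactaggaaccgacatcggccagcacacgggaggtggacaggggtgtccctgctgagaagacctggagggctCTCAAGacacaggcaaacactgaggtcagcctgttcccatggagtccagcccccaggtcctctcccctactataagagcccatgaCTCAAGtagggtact
Sftpa1, chr14:41131538-41131787, plus strand: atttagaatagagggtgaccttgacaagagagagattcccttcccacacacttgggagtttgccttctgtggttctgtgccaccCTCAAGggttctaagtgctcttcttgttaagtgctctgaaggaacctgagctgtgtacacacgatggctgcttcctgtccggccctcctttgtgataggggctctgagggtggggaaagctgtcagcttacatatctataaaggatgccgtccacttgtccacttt
Lamp3, chr16:19706366-19706615, minus strand: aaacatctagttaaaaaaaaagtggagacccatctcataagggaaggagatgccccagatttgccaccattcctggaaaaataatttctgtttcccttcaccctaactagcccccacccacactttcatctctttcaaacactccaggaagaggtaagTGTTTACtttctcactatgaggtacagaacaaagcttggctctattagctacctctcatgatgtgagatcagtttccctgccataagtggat
Ager, chr17:34597600-34597849, plus strand: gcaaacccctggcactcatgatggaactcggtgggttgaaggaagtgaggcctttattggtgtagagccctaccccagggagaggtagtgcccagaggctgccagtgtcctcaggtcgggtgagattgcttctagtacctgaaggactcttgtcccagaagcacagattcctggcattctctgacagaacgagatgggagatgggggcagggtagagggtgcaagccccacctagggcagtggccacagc
CTCAAG was found at 2 places in the Sftpb stretch, 100 and 15 bases before the start, and at 1 place in that of Sftpa1, 166 bases before it. It was thus in 2 of 7 stretches, where 13.33% of 32851 RefSeq promoter stretches of this length hold it on either strand. TGTTTAC was in 1 of 7, against 3.17% of all. A match of these letters is a description of the sequence, and no match says only that the letters are not in this window.

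**Figure D1:**
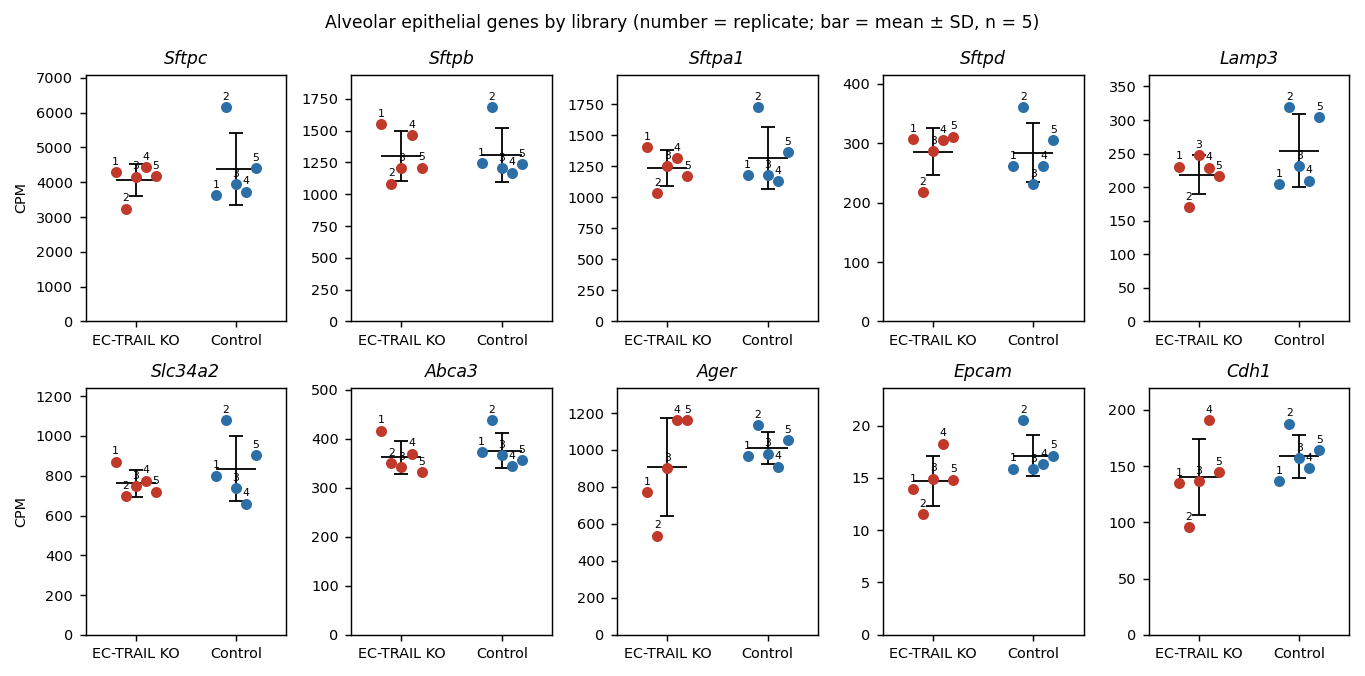
Level of each of the 10 alveolar genes in CPM (vertical axes start at 0) in the 5 EC-TRAIL KO libraries (red, left) and the 5 Control libraries (blue, right), numbered by replicate, with mean and SD. The groups overlap in every gene, with EC-TRAIL KO replicate 2 the lowest library in 8 of 10 genes and Control replicate 2 the highest in 8 of 10.

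Alveolar epithelial transcripts were abundant in every library and did not differ between the groups beyond the spread between libraries. The 10 genes together took 0.929% ± 0.111 of scaled counts in EC-TRAIL KO and 0.994% ± 0.188 in Control (SD, n = 5 each). None of the 10 passed edgeR's quasi-likelihood test in either direction, where 0.439% of 17997 tested genes passed as higher in EC-TRAIL KO (79 genes) and 0% as lower. Among the 10, 0 had an unadjusted p under 0.05 and 0 passed with DESeq2 or limma-voom. The background count itself is unsteady. It was 1 gene without any 1 of the Control libraries or without EC-TRAIL KO replicate 3 or 4, 159 without EC-TRAIL KO replicate 1, and 32 without both libraries numbered 2. At an unadjusted p under 0.05, 706 genes were higher and 253 lower. The median log2 fold change of the 10 alveolar genes was -0.12, beside -0.0091 over all tested genes, with 9 of the 10 below 0 and 1 above. Of all 17997 tested genes 9497 were below 0 and 8500 above. Other marker lists leaned the same way, with 15 of 15 further type I, 16 of 18 further type II and 11 of 12 fibroblast markers below 0. The 10 genes vary together, so the 9 are not separate signs. Without the 2 libraries that stood apart the median of the 10 was 0.025. Those 2 were singled out by the levels of these same genes, 1 low in EC-TRAIL KO and 1 high in Control. The direction of the move was therefore set by that choice. EC-TRAIL KO replicate 2 was also the library inside the Control range of Tnfsf10. Without it alone log2 fold changes were -0.036 for Sftpc, 0.053 for Sftpb, -0.14 for Lamp3, -0.016 for Ager, -0.15 for Epcam and -0.065 for Cdh1. Whether its Tnfsf10 level and its alveolar levels are linked was not tested. In bulk RNA, fewer cells of a type and less RNA per cell cannot be told apart.

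Sftpc encodes surfactant protein C, a small hydrophobic peptide made by type II cells, of which it is a defining product (ENSMUSG00000022097, chromosome 14, 70520949 to 70524081, minus strand, GRCm38). It was at 4302, 3243, 4161, 4439.9 and 4174 CPM in EC-TRAIL KO replicates 1 to 5, and at 3638, 6171, 3941, 3734 and 4403 CPM in Control replicates 1 to 5. One library of each group lies away from the rest, low in EC-TRAIL KO and high in Control, and the other 8 lie close together. The means were 4064 ± 472 CPM in EC-TRAIL KO and 4377 ± 1045 CPM in Control (SD, n = 5 each), and the log2 fold change was -0.11 (SE 0.160; adjusted p = 0.997, edgeR). A two-sided exact permutation of log2 CPM gave p = 0.667, where 5 against 5 libraries allow 0.00794 at the smallest. Without Control replicate 2 the sign turned (log2 fold change 0.048), and without both libraries numbered 2 it was 0.12.

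Sftpb, which encodes the surfactant protein B needed to form lamellar bodies (ENSMUSG00000056370, chromosome 6, 72304610 to 72314371, plus strand), was at 1553, 1084, 1202, 1466 and 1208 CPM in EC-TRAIL KO and at 1242, 1687, 1207, 1169 and 1238 CPM in Control. EC-TRAIL KO replicates 1 and 4 were above 4 of the 5 Controls. The means were 1303 ± 198 CPM in EC-TRAIL KO and 1309 ± 214 CPM in Control (SD, n = 5 each), with a log2 fold change of -0.0066 (SE 0.130; adjusted p = 0.997, edgeR).

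Sftpa1 and Sftpd encode the collectins SP-A and SP-D, secreted lectins of surfactant that bind microbes. Sftpa1 (ENSMUSG00000021789, chromosome 14, 41131782 to 41136452, plus strand) was at 1404, 1034, 1250.4, 1318 and 1171.5 CPM in EC-TRAIL KO and at 1181, 1729, 1178, 1129.6 and 1364 CPM in Control. Sftpd (ENSMUSG00000021795, chromosome 14, 41172214 to 41185149, minus strand) was at 307, 218, 287, 305 and 311 CPM in EC-TRAIL KO and at 262, 361, 231, 262 and 305 CPM in Control. In Sftpd 4 of the 5 EC-TRAIL KO libraries were inside the Control range and above the Control mean, with replicate 2 below it. Their log2 fold changes were -0.091 (SE 0.129) for Sftpa1 and 0.0075 (SE 0.128) for Sftpd (edgeR adjusted p = 0.997 for both).

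Lamp3, Slc34a2 and Abca3 serve the machinery behind surfactant. Lamp3 encodes a membrane protein of lamellar bodies (ENSMUSG00000041247, chromosome 16, 19653378 to 19706375, minus strand) and was at 231, 170.3, 248, 229 and 217 CPM in EC-TRAIL KO and at 204, 319.8, 232, 209.6 and 304 CPM in Control. In the Controls the values were split, with replicates 2 and 5 above the rest and no EC-TRAIL KO library as high. Slc34a2, the sodium-phosphate cotransporter that takes up phosphate freed from surfactant lipid (ENSMUSG00000029188, chromosome 5, 53038081 to 53071664, plus strand), had 698 to 871 CPM in EC-TRAIL KO and 659.9 to 1080.3 CPM in Control, so that all 5 EC-TRAIL KO libraries were inside the Control range. Abca3, the transporter that loads lipid into lamellar bodies (ENSMUSG00000024130, chromosome 17, 24351950 to 24410201, plus strand), had 331 to 417 CPM in EC-TRAIL KO and 344 to 438 CPM in Control. It was the steadiest of the 10, with a 1.32-fold range over all libraries. Of its exons, 914 bases overlap the antisense gene D330041H03Rik, and no source used here says whether counting used strand, so a part of its count is uncertain. Log2 fold changes were -0.21 (SE 0.141) for Lamp3, -0.13 (SE 0.124) for Slc34a2 and -0.055 (SE 0.0853) for Abca3 (edgeR adjusted p = 0.997 for each).

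Ager, which encodes the receptor RAGE and marks type I cells in the lung (ENSMUSG00000015452, chromosome 17, 34597862 to 34600936, plus strand), behaved otherwise. It was at 771, 537, 903, 1162 and 1160.0 CPM in EC-TRAIL KO and at 968, 1137, 981, 909.6 and 1055 CPM in Control. No EC-TRAIL KO library lay inside the Control range: replicates 1, 2 and 3 were below every Control, and replicates 4 and 5 were above every Control. The SD was 267 CPM around 907 in EC-TRAIL KO and 87.6 CPM around 1009.85 in Control (n = 5 each). With a log2 fold change of -0.16 (SE 0.179) the means did not differ beyond that spread (edgeR adjusted p = 0.997), and the difference in spread was not tested. Akap5, another type I marker, likewise had no EC-TRAIL KO library inside its Control range of 334 to 366 CPM. Its SD was also larger in EC-TRAIL KO than in Control (72.0 and 13.5 CPM), as was that of Hopx (85.7 and 40.5 CPM). The type I markers Clic5 (91.7 and 117 CPM) and Emp2 (47.1 and 54.6 CPM) went the other way.

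Epcam and Cdh1 encode adhesion molecules found in nearly all epithelium, the second being E-cadherin. Epcam (ENSMUSG00000045394, chromosome 17, 87635979 to 87651129, plus strand) was at 13.9, 11.5, 14.9, 18.3 and 14.8 CPM in EC-TRAIL KO and at 15.9, 20.5, 15.8, 16.3 and 17.1 CPM in Control. In 4 of the 5 EC-TRAIL KO libraries Epcam was below every Control, and in replicate 4 it was not. Its log2 fold change of -0.22 (SE 0.121) was the one farthest from 0 among the 10, with an unadjusted p of 0.0915 and an adjusted p of 0.997 in edgeR. Cdh1 (ENSMUSG00000000303, chromosome 8, 106603351 to 106670246, plus strand) was at 135, 95.5, 136, 191 and 145 CPM in EC-TRAIL KO and at 136, 188, 157, 148 and 164 CPM in Control. EC-TRAIL KO held both its lowest library, replicate 2, and its highest, replicate 4. The log2 fold change of Cdh1 was -0.18 (SE 0.149; adjusted p = 0.997, edgeR).

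**Figure D2:**
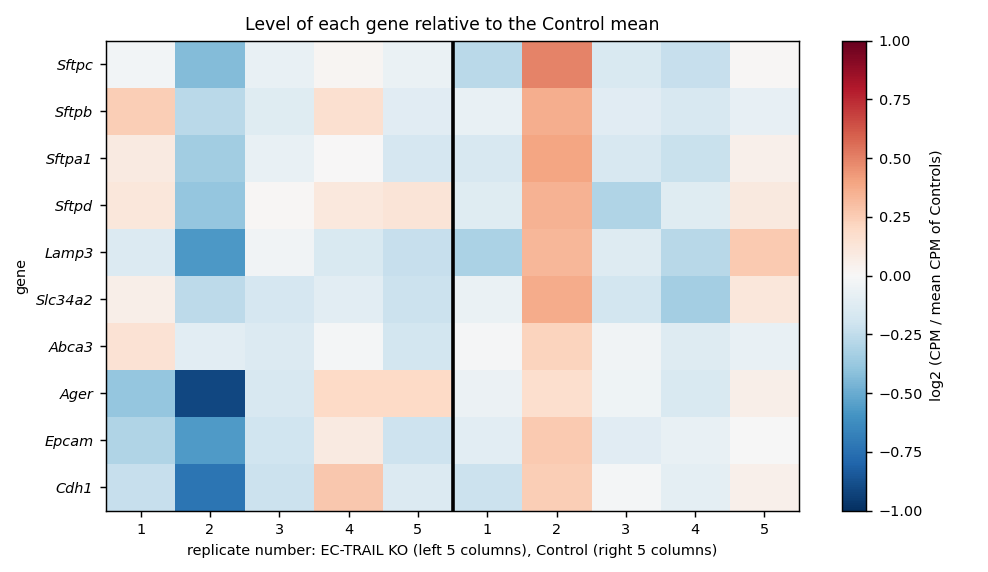
Each cell is 1 gene (rows) in 1 library (columns, EC-TRAIL KO replicates 1 to 5 left of the line, Control replicates 1 to 5 right of it), coloured by log2 of its CPM over the mean CPM of the Controls. EC-TRAIL KO replicate 2 is blue and Control replicate 2 red in all 10 rows, while Ager, Epcam and Cdh1 have a contrast between EC-TRAIL KO replicates 1 and 4 that most type II genes lack.

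Across genes, the 2 libraries numbered 2 marked the ends of the range. In EC-TRAIL KO replicate 2 the median level of the 10 genes was 0.753 of their Control means, and in Control replicate 2 it was 1.27 of them. In the other 8 libraries this ratio ran from 0.897 to 1.04. EC-TRAIL KO replicate 2 was also the shallowest library, with 29806083 counts, and Control replicate 2 the deepest, with 56897822. The part of depth in these levels was not tested. Of the 13 endothelial markers 3 were lowest in EC-TRAIL KO replicate 2 (Ptprb, Tek and Ramp2, named after their values were seen) and 0 were highest in Control replicate 2. Cdh5 and Pecam1 lay the other way, with EC-TRAIL KO replicate 2 the highest and Control replicate 2 the lowest library of its group. The within-group SD of log2 CPM was 0.132 for Abca3, 0.201 to 0.280 for 8 of the genes and 0.340 for Ager, beside a median of 0.147 over the 9528 tested genes with a mean of at least 10 CPM.

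**Figure D3:**
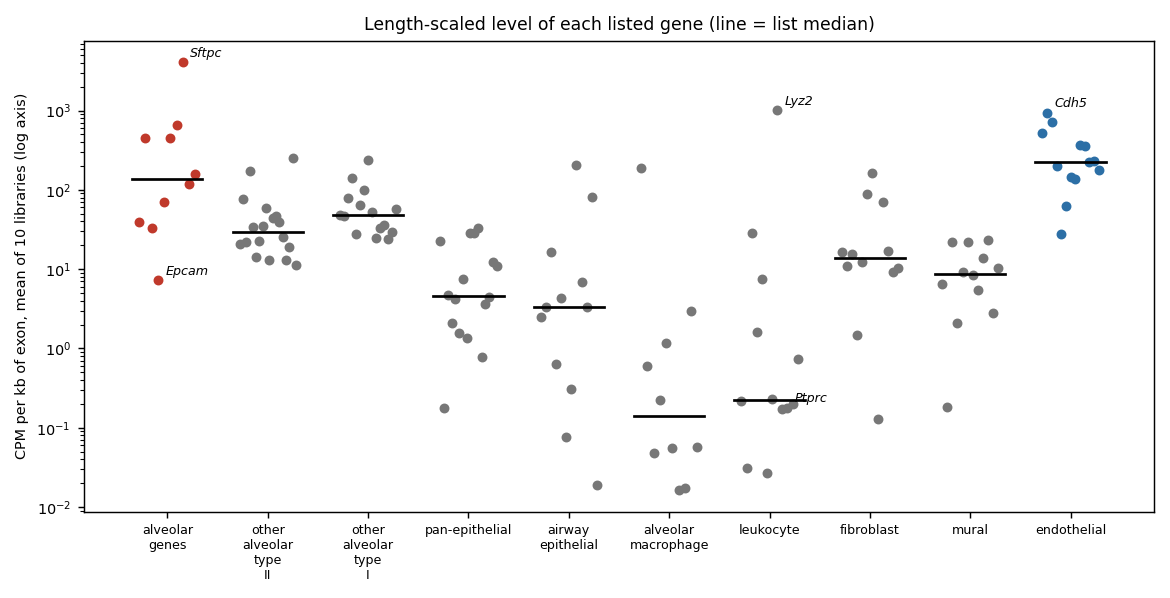
Level per kilobase of exon (CPM per kb, log axis, mean of the 10 libraries) of every gene of the 10 alveolar genes (red), of other marker lists (grey) and of endothelial markers (blue), with a line at each list's median. Sftpc lies above every endothelial marker, and Ptprc lies more than 3 powers of 10 below it.

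Levels of different genes were set side by side per kilobase of exon, using the joined exon length of each gene in GENCODE. On this scale Sftpc was at 3930.4 ± 457 CPM per kb in EC-TRAIL KO and 4233 ± 1010.5 CPM per kb in Control (SD, n = 5 each), and over the 10 libraries it ranked 3 among 17977 tested genes with a length. It was 4.37-fold above Cdh5, which encodes the endothelial cadherin and was the most abundant endothelial marker per kb, at 961 CPM per kb in EC-TRAIL KO and 909 CPM per kb in Control. Sftpb followed at 662 ± 100.5 in EC-TRAIL KO and 665 ± 109 in Control. Next came Sftpa1, at 432 ± 49.4 in EC-TRAIL KO and 460.2 ± 86.5 in Control, and Ager, at 423 ± 125 in EC-TRAIL KO and 472 ± 40.9 in Control, neighbours that do not differ beyond their spread (SD, n = 5 each, in CPM per kb). These 4 lay above the median of the 13 endothelial markers, 227 CPM per kb. Slc34a2 was at 152 CPM per kb in EC-TRAIL KO and 167 in Control, Sftpd at 118 in both groups, and Lamp3 at 65.2 in EC-TRAIL KO and 75.7 in Control. Abca3 was at 38.6 CPM per kb in EC-TRAIL KO and 40.1 in Control, and Cdh1 at 30.7 in EC-TRAIL KO and 34.7 in Control. Epcam was the lowest at 6.70 CPM per kb in EC-TRAIL KO and 7.80 in Control, and Sftpc stood 563-fold above it over all libraries. No library of pure alveolar cells was analysed here, so these levels give no share of cells.

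The ratio of each gene to Sftpc was followed from library to library, and for most type II genes it varied less than the gene's own level. For every 100 CPM of Sftpc there were 30.5 ± 1.82 CPM of Sftpa1 in EC-TRAIL KO and 30.3 ± 1.62 CPM in Control (SD, n = 5 each). The coefficient of variation of this ratio over 10 libraries was 5.35%, where that of Sftpa1 itself was 15.3%. Sftpd came to 7.02 ± 0.290 CPM per 100 in EC-TRAIL KO and 6.57 ± 0.656 in Control, with a coefficient of variation of 7.83%. For Sftpb, Lamp3 and Slc34a2 this figure was 9.31%, 9.65% and 9.55%. Abca3 went the other way, its ratio to Sftpc (12.9%) varying more than its level (9.20%). Ager came to 22.03 ± 4.93 CPM per 100 CPM of Sftpc in EC-TRAIL KO and 23.6 ± 3.09 in Control (SD, n = 5 each), with a coefficient of 17.4% for the ratio and 20.3% for the level. Without both libraries numbered 2 the coefficients of ratio and level lay closer, at 4.93% and 8.10% for Sftpa1, 6.74% and 10.3% for Sftpd, 9.20% and 10.3% for Slc34a2, and 9.60% and 7.28% for Abca3.

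**Figure D4:**
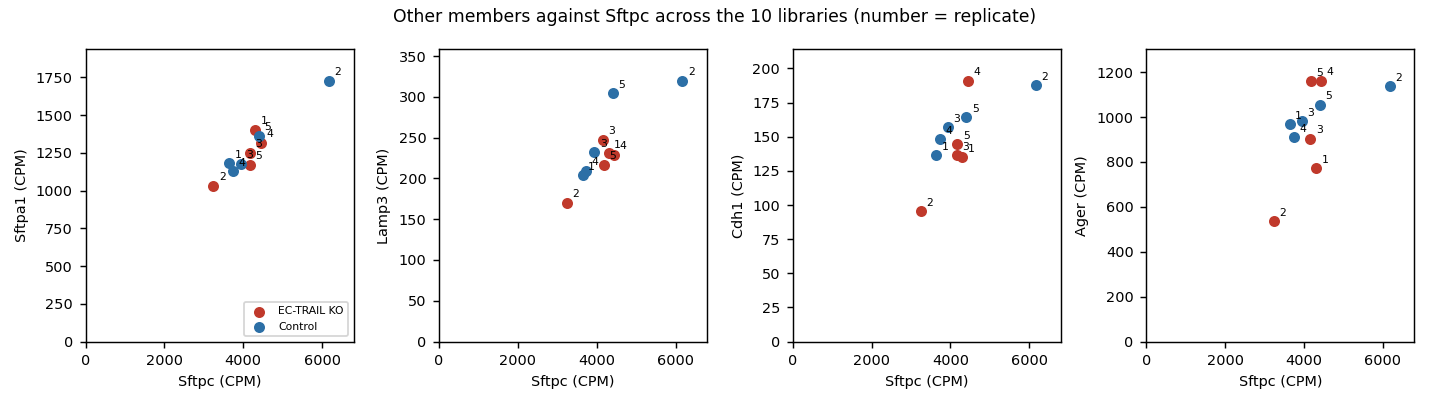
Sftpa1, Lamp3, Cdh1 and Ager (CPM, vertical axes from 0) against Sftpc (CPM, horizontal axis from 0) in EC-TRAIL KO (red) and Control (blue) libraries, numbered by replicate. Sftpa1 keeps close to a straight line with Sftpc, and the 8 libraries not numbered 2 differ in Ager at nearly the same Sftpc.

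Sftpc was set against each of the other 9 genes over the 10 libraries, on log2 CPM, with permutation tests adjusted over these 9 relations. The closest relation was with Sftpa1, at Pearson r = 0.95 (permutation p = 7.00e-05, adjusted 0.00063) and Spearman rho = 0.83 (permutation p = 0.00466, adjusted 0.021). Sftpd followed, at r = 0.88 (permutation p = 0.00048, adjusted 0.00216) and rho = 0.85 (permutation p = 0.00264, adjusted 0.021). By Pearson r 8 of the 9 passed and Ager did not, at r = 0.63 (permutation p = 0.0799) and rho = 0.65 (permutation p = 0.0501, adjusted 0.0644). Abca3 passed by r (0.66, permutation adjusted p = 0.0477) but not by rho (0.39, permutation adjusted p = 0.264), and Epcam passed by r (0.79, permutation adjusted p = 0.0206) but not by rho (0.59, permutation adjusted p = 0.0909). These relations rest on the libraries numbered 2, which are the 2 farthest from the median of Sftpc. Without both of them r was 0.80 for Sftpa1, 0.75 for Sftpd, 0.65 for Lamp3, 0.55 for Sftpb, 0.52 for Slc34a2, 0.48 for Cdh1, 0.25 for Ager, 0.15 for Abca3 and 0.13 for Epcam, and 0 of the 9 passed the exact permutation test after adjustment. Without Control replicate 2 alone 4 passed, and without EC-TRAIL KO replicate 2 alone 5. All genes of a library share its depth and scaling. The permutations treat all libraries as exchangeable. Most EC-TRAIL KO libraries were closest to the Control of the same number (given below), and these p-values take no account of that.

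**Figure D5:**
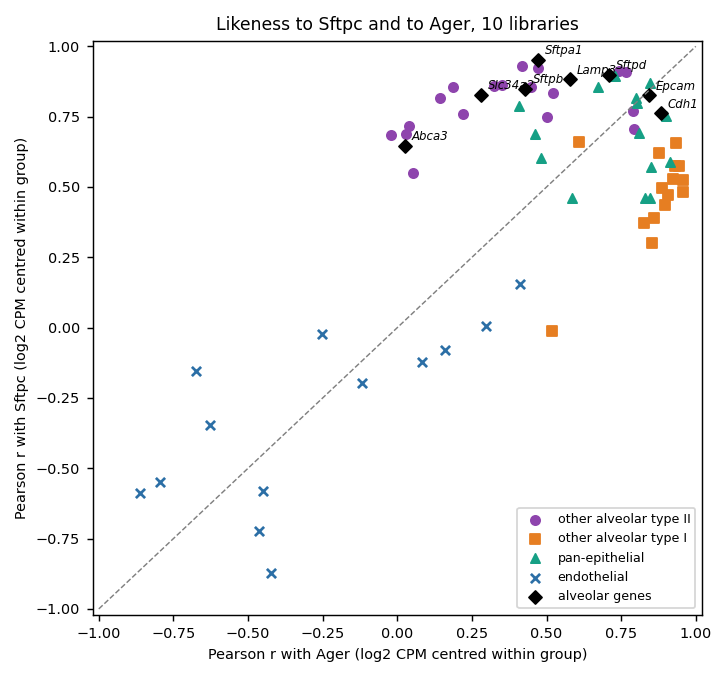
Pearson r over the 10 libraries of log2 CPM, centred within each group, with Ager (horizontal) and with Sftpc (vertical), 1 point per gene with a mean of at least 5 CPM. Of the other type II markers 16 of 18 lie above the diagonal, and 14 of 15 other type I markers lie below it, with Epcam and Cdh1 near the right end and endothelial markers mostly below 0.

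Sftpc and Ager stood for different courses across the libraries, and other markers of the same cells sided with them. Each gene's log2 CPM was centred within its group and correlated with Sftpc and with Ager, as a description over 10 libraries that share their scaling. Of 18 other type II markers 16 were closer to Sftpc than to Ager (median r 0.83 with Sftpc and 0.39 with Ager), among them Hc, which encodes complement C5 (0.86 and 0.35), and Fasn, the fatty acid synthase (0.76 and 0.22). Of 15 other type I markers 14 were closer to Ager (median r 0.49 with Sftpc and 0.90 with Ager), among them Lmo7 (0.39 and 0.86) and Hopx, a homeodomain protein of type I cells (0.53 and 0.96). Without both libraries numbered 2, 17 of 18 and 14 of 15 fell on these sides, but the type II medians were lower, at 0.48 with Sftpc and -0.13 with Ager, and the type I medians were 0.44 and 0.83. All 15 type I markers were lowest in EC-TRAIL KO replicate 2 and 1 was highest in Control replicate 2, whereas 16 of the 18 type II markers were highest in Control replicate 2 and 8 were lowest in EC-TRAIL KO replicate 2. Among the 10 genes themselves, Epcam (r 0.83 with Sftpc and 0.84 with Ager) and Cdh1 (0.76 and 0.88) were near both, while Abca3 was at 0.65 with Sftpc and 0.025 with Ager.

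Many markers of other cells were also closer to Ager than to Sftpc. All 6 airway markers with at least 5 CPM, among them Tppp3, a gene of ciliated cells, were closer to Ager than to Sftpc (median r 0.66 with Sftpc and 0.92 with Ager). So were all 11 mural markers, those of pericytes and smooth muscle (median 0.095 and 0.65), and 10 of 11 fibroblast markers (0.40 and 0.68). Closer means only the larger r, and not every such marker followed Ager. In single genes r with Ager ran from 0.34 to 0.94 for airway, from -0.34 to 0.84 for mural and from 0.17 to 0.86 for fibroblast markers. Endothelial markers had a median r of -0.20 with Sftpc and -0.42 with Ager. Without both libraries numbered 2, the counts closer to Ager were 6 of 6 airway, 10 of 11 mural and 10 of 11 fibroblast markers. The medians with Sftpc and with Ager were then 0.090 and 0.74 for airway, -0.15 and 0.52 for mural, -0.32 and 0.33 for fibroblast and -0.29 and -0.44 for endothelial markers. Lyz2, lysozyme 2, a gene of macrophages that mouse type II cells also express, was at 0.92 with Sftpc and 0.48 with Ager. Its levels were 1267 ± 179.7 CPM in EC-TRAIL KO and 1404 ± 279 CPM in Control (SD, n = 5 each).

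Outside the 10 genes, 11264 tested genes had a mean of at least 5 CPM and were ranked by Pearson r with the mean course of the 10 over the 10 libraries (log2 CPM, centred within group). Nearest were Cdon (r = 0.97), Emb (0.97), Rbm47 (0.96), Npc2 (0.94), Ldhb (0.94), Trpm6 (0.94), Myo5c (0.93), Pkp3 (0.93), Rab15 (0.93) and Ptprf (0.93). Rbm47 encodes an RNA-binding protein, Npc2 a lysosomal cholesterol carrier, Myo5c an unconventional myosin and Pkp3 a desmosomal plakophilin. Cdon was at 9.06 ± 1.46 CPM in EC-TRAIL KO and 9.11 ± 1.46 CPM in Control, and Npc2 at 221 ± 23.1 CPM in EC-TRAIL KO and 233 ± 25.9 CPM in Control (SD, n = 5 each). Among the 100 nearest genes were 5 of 15 pan-epithelial markers, 4 of 18 type II markers, 1 of 6 airway markers, Lyz2, and none of the 15 type I, 11 fibroblast, 11 mural or 13 endothelial markers. Most of the 10 genes are type II genes and Ager is the only type I gene, so their mean leans to type II by its make-up. Type I markers had a median r of 0.64 with this mean, and type II markers 0.79. The ranking by r rests largely on the libraries numbered 2. Without both, 20 of the 100 and 4 of the 10 nearest genes (Cdon, Emb, Ldhb and Ptprf) were again among the 100 nearest, with r from 0.52 for Myo5c to 0.88 for Cdon over the 10, and 1 of 15 pan-epithelial and 0 of 18 type II markers were.

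No gene of the other epithelial lists passed the test between the groups either. Of 18 further type II markers 0 rose, 0 fell and 18 did not pass (median log2 fold change -0.11). The most abundant was Scd1, a fatty acid desaturase, at 1184 ± 493 CPM in EC-TRAIL KO and 1291 ± 659 CPM in Control (SD, n = 5 each). Of 15 further type I markers 15 did not pass (median -0.091), with Clic5 at 1241 ± 91.7 CPM in EC-TRAIL KO and 1268 ± 117 CPM in Control and Emp2 at 845 ± 47.1 CPM in EC-TRAIL KO and 886 ± 54.6 CPM in Control (SD, n = 5 each). Clic5 and Emp2 are expressed in endothelium too. Of 16 pan-epithelial markers 16 did not pass (median -0.14), with Krt8, a keratin of simple epithelium, at 63.1 ± 18.9 CPM in EC-TRAIL KO and 64.7 ± 8.14 CPM in Control. Of 10 tested airway markers 10 did not pass (median -0.081), with Scgb1a1, the club cell secretoglobin, at 97.5 ± 13.4 CPM in EC-TRAIL KO and 100.8 ± 23.9 CPM in Control (SD, n = 5 each). Without both libraries numbered 2 the medians were 0.092 for type II, -0.0022 for type I, 0.030 for pan-epithelial and 0.061 for airway markers. Without EC-TRAIL KO replicate 2 alone that of type I markers was -0.0030, and without Control replicate 2 alone that of type II markers was 0.038.

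Leukocyte markers ran over a wide range. After Lyz2 came Csf1r, the receptor of macrophage colony-stimulating factor, at 42.4 ± 8.48 CPM in EC-TRAIL KO and 44.4 ± 4.86 CPM in Control, and Cd68, a lysosomal protein of macrophages, at 34.7 ± 2.73 CPM in EC-TRAIL KO and 36.3 ± 5.66 CPM in Control (SD, n = 5 each). Per kb over the 10 libraries they were at 7.52 and 28.3 CPM, beside 7.25 for Epcam. Ptprc, which encodes the pan-leukocyte antigen CD45, was at 2.28 to 4.64 CPM in EC-TRAIL KO and 1.60 to 4.51 CPM in Control, or 0.177 and 0.181 CPM per kb. In the leukocyte list 6 of 12 genes reached a mean of 1 CPM, and its summed level, 1074 to 1581 CPM in EC-TRAIL KO and 1268 to 1922 CPM in Control, was mostly Lyz2. In the alveolar macrophage list 3 of 10 did so. Its sum of 332 to 476 CPM in EC-TRAIL KO and 374 to 419.6 CPM in Control was mostly Car4, which lung capillary endothelium expresses, and Marco, a scavenger receptor of these macrophages, was at 0 in 5 of the 10 libraries. The fibroblast list summed to 1194 to 2061 CPM in EC-TRAIL KO and 1665 to 2020.2 CPM in Control, and the mural list to 405 to 673 CPM in EC-TRAIL KO and 528 to 708 CPM in Control. The 10 alveolar genes summed to 7441 to 10275 CPM in EC-TRAIL KO and 8583 to 13131 CPM in Control. None of the tested genes passed in the fibroblast list (12 tested, median log2 fold change -0.17), the mural list (12, -0.10), the leukocyte list (8, -0.059), the alveolar macrophage list (4, 0.21) or the endothelial list (13, 0.028). These medians moved with single libraries: with each left out in turn they ran from -0.27 to -0.070 for fibroblast, from -0.20 to -0.011 for mural, from -0.17 to 0.054 for leukocyte, from 0.035 to 0.39 for alveolar macrophage and from 0.0060 to 0.038 for endothelial markers. The fibroblast and mural values nearest 0 were those without EC-TRAIL KO replicate 2 (fibroblast) and without Control replicate 4 (mural). Without EC-TRAIL KO replicate 2 the mural median was -0.044. Without both libraries numbered 2 the medians were -0.040 for fibroblast, -0.036 for mural, 0.0012 for leukocyte, 0.11 for alveolar macrophage and -0.0012 for endothelial markers. Pecam1, the endothelial adhesion molecule CD31, was at 2357 ± 179 CPM in EC-TRAIL KO and 2182 ± 186 CPM in Control (SD, n = 5 each).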

How the data were processed

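RNA of sorted lung endothelial cells was sequenced in 10 libraries from a poly(A), stranded mRNA kit, per the labels' protocols. The authors deposited 1 table of expected counts, by gene and library; STAR 2.7.1a, RSEM 1.2.28 and GRCm38 are named in the submitters' processing notes, and no source used here gives the annotation release, any filter or the strandedness of counting. All columns were matched to samples by title. Symbols and exon lengths came from GENCODE M21 for GRCm38, which matched 55144 of 55385 identifiers.

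Expected counts were rounded and tested in R 4.3.3 with edgeR 4.0.16 (filterByExpr with a minimum count of 10, TMM, the newer quasi-likelihood fit with group as the single term, Benjamini-Hochberg over 17997 genes, threshold 0.05); the code was tested on simulated data. Standard errors are the fold change over the square root of F. CPM uses TMM sizes, and log2 CPM for likeness a prior count of 2. Correlations used 100000 permutations, or all where fewer than 10 libraries were left. Libraries were compared for repeats: chi-square over degrees of freedom was at least 18.0 in every pair, far above sampling noise.

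The 10 genes and the other 10 marker lists were chosen with earlier results of these data known. Named are the 10 genes, Tnfsf10, Cdh5, Pecam1 and Ptprc, up to 3 members of each list by mean CPM, and the 10 nearest genes. Hopx, Akap5, Wt1 and Marco were named after their values were seen. Alternatives were RLE factors, library size only, DESeq2 1.42.0, limma-voom 3.58.1, the legacy quasi-likelihood fit, no low-count filter, a mean of at least 1 CPM, a block for replicate number, leaving out single libraries and, added after seeing the data, both libraries numbered 2 left out. At these depths the counting error of the 10 genes is small beside the spread between libraries.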

Additional observations from a re-analysis of the deposited data

Results flagged for a closer look

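In 20 sets of 5 values (10 genes in 2 groups), 4 had a library far from the other 4 by Dixon's criterion at the 95% level, where chance gives about 1 in 20. EC-TRAIL KO replicate 2 was far below the rest of its group in Sftpc (3243 CPM) and in Sftpd (218 CPM). Control replicate 2 was far above the rest of its group in Sftpb (1687 CPM) and in Epcam (20.5 CPM). The genes vary together, so these are not separate signs, and both libraries were kept.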

How the results depend on the processing

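None of the 10 alveolar genes passed in any of the 19 alternatives (lowest adjusted p 0.668, Epcam). Their median log2 fold change was -0.12, ran from -0.18 to -0.0094 with each library left out, and was 0.025 without both libraries numbered 2. As those 2 were singled out by the levels of these genes, the upward direction of changes without both was set by the choice. Without both, log2 fold changes turned sign in Sftpc (0.12), Sftpb (0.16), Sftpa1 (0.084), Abca3 (0.019), Ager (0.030), Cdh1 (0.0035) and Slc34a2 (0.0052), and the difference in mean log2 CPM of Sftpc was 0.12 against -0.087 (exact permutation p = 0.114); the cause was not tested. Over single libraries left out, that difference ran from -0.15 to 0.044, Sftpc from -0.17 to 0.048, Sftpb from -0.078 to 0.10, Sftpa1 from -0.14 to 0.026, Sftpd from -0.060 to 0.11 and Abca3 from -0.11 to 0.0062, and Sftpd was -0.0050 with no low-count filter. The number of other genes passing with Sftpc, 8, ran from 4 to 8 over these and was 0 without both libraries numbered 2, where fewer samples were tested; with values centred within group it was 7.

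Genes passing over the whole table (79 higher, 0 lower) came to 1 and 0 with library size only, 208 and 3 with DESeq2, 2 and 0 with limma-voom, 134 and 1 with no low-count filter, 1 and 0 at a mean of at least 1 CPM, and 32 and 0 without both libraries numbered 2. With single libraries left out they ran from 1 to 159 higher and from 0 to 1 lower. Same-numbered libraries had deviations correlated at 0.44, 0.017, 0.45, 0.68 and 0.41 for numbers 1 to 5. EC-TRAIL KO replicates 1, 3, 4 and 5 each correlated best with the Control of the same number, and replicate 2 with Control replicate 1. The labels name no pairing, so the main test has no block. Whether same-numbered libraries share a batch was not tested. With the replicate block 167 genes were higher and 5 lower, no alveolar gene passed, and their median was -0.0997.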

Other observations

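Mesothelium, the lining of the lung surface, gave values outside the comparisons above. Of 6 mesothelial markers 5 had a log2 fold change above 0 (median 0.51) and 0 passed with edgeR, also 0 with DESeq2 or limma-voom. Upk3b, a uroplakin, was at 7.94 ± 2.27 CPM in EC-TRAIL KO and 5.23 ± 1.92 CPM in Control (SD, n = 5 each), with a log2 fold change of 0.63 (SE 0.252; adjusted p = 0.817, edgeR). Gpm6a was at 21.9 ± 3.32 CPM in EC-TRAIL KO and 23.9 ± 5.12 CPM in Control, with a log2 fold change of -0.12 (SE 0.143; adjusted p = 0.997, edgeR). The median of the list was 0.52 without both libraries numbered 2, where that of the further type II markers was 0.092 instead of -0.11. Mrc1, the mannose receptor of macrophages and of some endothelium, was at 22.8 ± 8.34 CPM in EC-TRAIL KO and 14.9 ± 2.40 CPM in Control (SD, n = 5 each; log2 fold change 0.61, SE 0.205, edgeR adjusted p = 0.535), and its highest library was EC-TRAIL KO replicate 2, at 36.9 CPM.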
